A study of Mus musculus with 13 samples.

Results

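The chemokine ligand gene Cxcl12 and the 2 genes for its receptors, Cxcr4 and Ackr3, were followed across 13 RNA-seq libraries of mouse medulloblastoma. They were taken by symbol as 3 of the 53653 genes of the count table, and all 3 passed the filter on low counts that left 22265 genes for testing. Medulloblastoma is a tumour of the cerebellum. All 13 libraries came from GFP-positive tumour cells sorted from animals that express SmoM2, an always-active form of Smoothened that switches on Sonic Hedgehog signalling. KO metastasis libraries (replicates 3, 4, 6 and 7) came from spinal metastases of SmoM2 animals that also lacked Kmt2d (Kmt2dCf/Cf), aged 5 to 8 weeks. KO primary libraries (replicates 3, 4, 6 and 7) came from cerebellar tumours of that genotype and age. Control primary libraries (replicates 3 to 7) came from cerebellar tumours of SmoM2 animals without the Kmt2d knockout, aged 6 to 16 weeks, so age differs between the genotypes. KMT2D is a histone methyltransferase that acts mainly at enhancers. KO metastasis and KO primary libraries share the genotype and differ in site, while KO metastasis and control primary libraries differ in both site and genotype. Frozen pellets held 0.1 to 3 M cells for metastases and 1 to 5 M for primary tumours. The sources used here do not give the promoter behind the Cre, the deleted part of Kmt2d or which libraries came from separate mice. The p-values therefore measure the spread between these libraries, which may be technical. KO primary 7 is labelled as right hemisphere but its title ends in L.

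CXCL12 is a secreted chemokine that signals through CXCR4, a receptor coupled to inhibitory G proteins that directs cell migration and adhesion. ACKR3, an atypical chemokine receptor, binds the same ligand, does not couple to G proteins in the classical way and clears CXCL12 by taking it into the cell, which limits how much of it reaches CXCR4. In the developing cerebellum CXCL12 made by the meninges attracts granule cell precursors, the cells from which Sonic Hedgehog medulloblastoma arises, and these precursors carry CXCR4.

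The libraries held 23.5 to 41.4 M counts. Kmt2d read 105, 111, 115 and 131 CPM (counts scaled to the library total, with TMM factors) in the KO metastases, 91.7 to 168 CPM in KO primary and 78.1 to 175 CPM in control primary libraries. A count over the whole gene does not show the loss of part of it, so it does not check the genotype labels. Of the labelled cell type, granule cell precursors, all 17 listed marker genes were counted in every library, and their sum was 7299 to 9395 CPM in KO metastasis, 7399 to 8774 CPM in KO primary and 5396 to 7174 CPM in control primary libraries. Olfactory and vomeronasal receptor genes, which these cells do not use, drew 565 CPM in KO metastasis 6, 349 CPM in KO metastasis 7, 723 CPM in KO primary 7 and 1752 CPM in control primary 3, against 83.5 CPM or less in the other 9 libraries. These 4 are called high-background libraries. Controls 5, 6 and 7 expressed Xist, and no other library did above 1.02 CPM, so the controls were mixed in sex and the knockout libraries were not.

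Cxcl12 was lower in both knockout groups than in control tumours, Cxcr4 had the highest level per length of the 3 in every library with no edgeR call, and Ackr3 had the widest spread. Cxcl12, the ligand gene, lies on GRCm38 chromosome 6 from 117168535 to 117181367 on the plus strand, and no other gene of GENCODE M21 overlaps it. It stood at 12.4, 11.3, 7.62 and 11.1 CPM in KO metastasis 3, 4, 6 and 7, from 346, 426, 217 and 387 reads. In KO primary 3, 4, 6 and 7 it stood at 10.9, 12.9, 13.01 and 13.002 CPM, from 420, 474, 492 and 480 reads. In control primary 3 to 7 it stood at 29.6, 35.1, 30.6, 24.9 and 43.2 CPM, from 779, 1184, 804, 773 and 1605 reads. Every one of the 8 knockout libraries was below every control library, and the knockout groups overlapped each other.

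Cxcl12 averaged 12.5 ± 1.02 CPM in KO primary (SD, n = 4) and 32.7 ± 6.91 CPM in control primary libraries (n = 5). The log2 change was -1.39 (SE 0.190, 95% interval -1.80 to -0.98), a fold of 0.381, with an edgeR quasi-likelihood adjusted p of 0.00132 over all genes tested. In this comparison 653 genes, or 2.93% of those tested, were called at an adjusted p below 0.05, 257 higher and 396 lower. Against the same controls, the KO metastases averaged 10.6 ± 2.08 CPM (SD, n = 4), a log2 change of -1.62 (SE 0.192, 95% interval -2.03 to -1.21) and a fold of 0.325 (edgeR adjusted p = 6.07e-04). Here 685 genes, or 3.08%, were called. The 2 comparisons share their control libraries and are not independent. Within hemispheres, the log2 ratio of means for KO primary over control primary was -1.49 in the left (2 against 2 libraries) and -1.33 in the right (2 against 3).

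KO metastases and KO primary tumours were compared to ask whether tumour cells in the spine differ from those in the cerebellum. The log2 change of Cxcl12 was -0.23 (SE 0.195, 95% interval -0.65 to 0.19, edgeR adjusted p = 0.9997). Only 1 of 22265 genes, or 0.00449%, was called in this comparison by edgeR. It was Mbp, for myelin basic protein of oligodendrocytes, at an adjusted p of 0.0485. Mbp averaged 245 CPM in KO metastasis libraries and 44.2 CPM in KO primary libraries. With other tools, settings or libraries, that call was lost in 9 fits and kept in 6. At an unadjusted p below 0.05 edgeR gave 720 genes, and DESeq2 called 39.

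The call for KO primary over control primary fell to an edgeR adjusted p of 0.0561 without the 3 controls with Xist, with a log2 change of -1.33 that left 2 control libraries. For KO metastasis over control primary, the call held without those 3 controls (log2 change -1.53, adjusted p = 0.0369). Cxcl12 was called in both comparisons whichever single library was left out, and without the 4 high-background libraries (adjusted p = 0.00310 and 0.00812).

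**Figure D1:**
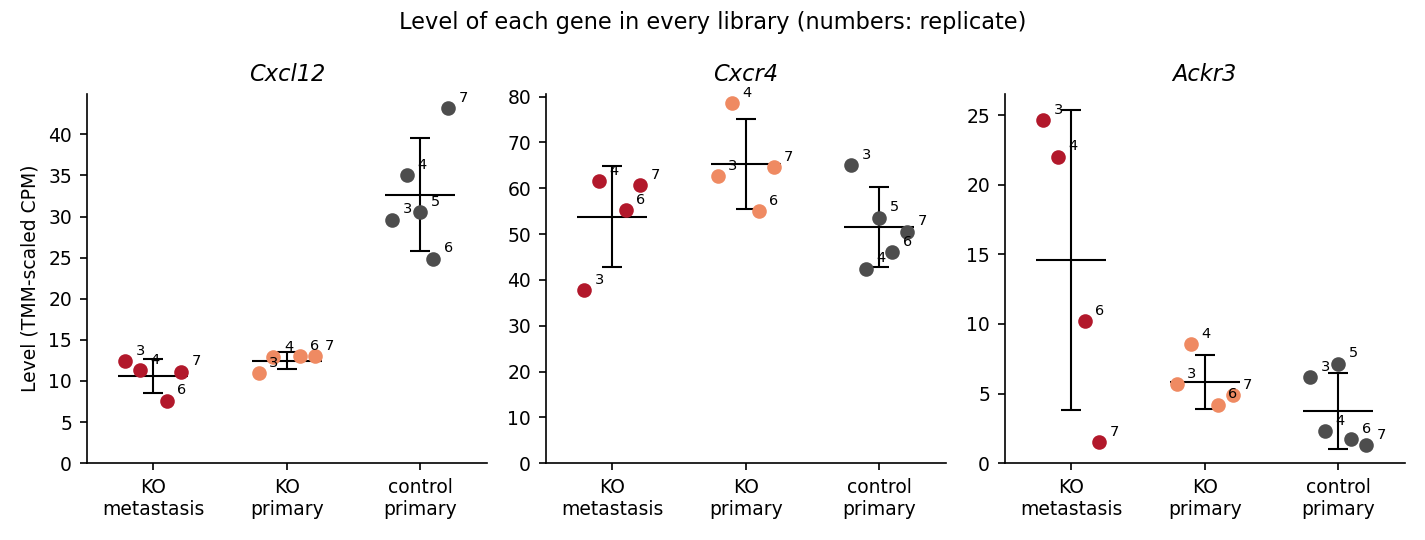
Level of Cxcl12, Cxcr4 and Ackr3 in TMM-scaled CPM in each library of the KO metastasis, KO primary and control primary groups, with points numbered by replicate, the mean as a bar and the SD as whiskers. For Cxcl12 all 8 knockout libraries lie at 13.01 CPM or below and all controls at 24.9 CPM or above, while for Cxcr4 the groups overlap and for Ackr3 the KO metastases run between 1.496 and 24.6 CPM.

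In bulk RNA, fewer cells that make a transcript and less transcript per cell cannot be told apart. Most genes of differentiating granule neurons moved with Cxcl12: of 16 listed, 11 were called lower and none higher in KO primary, and 8 were called lower and none higher in KO metastasis libraries than in controls. Their sum was 1750 to 2812 CPM in KO metastasis, 1654 to 1921 CPM in KO primary and 3063 to 4974 CPM in control primary libraries. Elavl4, which encodes a neuronal RNA-binding protein, averaged 92.4 ± 11.8 CPM in KO metastasis, 79.1 ± 6.52 CPM in KO primary and 178 ± 23.2 CPM in control primary libraries (SD, n = 4, 4 and 5). Rbfox3, also on the list, went the other way. It was at 224 to 310 CPM in KO metastasis, 236 to 288 CPM in KO primary and 166 to 239 CPM in control primary libraries. The part of these cells in the Cxcl12 difference was not tested. Of 17 precursor genes, 2 were called higher in KO primary and 3 in KO metastasis over control primary, and none lower. Atoh1, the transcription factor of granule cell precursors, was called higher in KO primary libraries (684 ± 83.3 CPM, n = 4, against 350 ± 49.9 CPM in controls, n = 5, edgeR adjusted p = 0.0199). The Atoh1 call ended without KO primary 3 or 4 or control primary 4 or 7 (adjusted p = 0.0587 to 0.0953) and without the controls with Xist (0.185).

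Meningeal fibroblasts and endothelial cells, known sources of CXCL12, were read through their marker genes. The libraries came from sorted GFP-positive cells, and how far the sort removed both cell types was not tested. The sum of 10 fibroblast and meningeal genes was 73.9 to 186 CPM in KO metastasis, 179 to 378 CPM in KO primary and 208 to 465 CPM in control primary libraries. Most of it was Pdgfra, which oligodendrocyte precursors also express, and Aldh1a2 and Col3a1. Dcn, Lum and Foxc2 were at 0 in 3, 3 and 7 of the 13 libraries. The 8 that were tested had a median log2 change over control primary of -0.64 in KO primary (2 positive). In KO metastasis it was -0.58 (0 positive), and for all genes tested the medians were -0.05 and -0.04. None of the 8 was called in KO primary over control primary. Pdgfra was called lower in KO metastasis over control primary (log2 change -1.42, SE 0.328, edgeR adjusted p = 0.0308). That call ended without any 1 of the 4 KO metastases or without control primary 4 or 6 (adjusted p = 0.0524 to 0.112), without the controls with Xist (0.151) and with the 2 groups fitted alone (0.0598). The 10 endothelial genes summed to 25.5 to 52.1 CPM in KO metastasis, 22.0 to 38.6 CPM in KO primary and 28.1 to 60.9 CPM in control primary libraries. Ramp2 gave most of that sum, and Kdr was at 0 in 4 libraries and Tie1 in 6. None of the 10 was called in either comparison. Their median log2 change over control primary was -0.35 in KO primary (4 positive) and -0.23 in KO metastasis (3 positive). The part of these cells in the Cxcl12 difference was not tested.

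Cxcr4, the gene for the signalling receptor, lies on chromosome 1 from 128588199 to 128592293 on the minus strand. It read 37.7, 61.6, 55.2 and 60.7 CPM in KO metastasis 3, 4, 6 and 7. In KO primary 3, 4, 6 and 7 it read 62.6, 78.6, 55.0 and 64.6 CPM, and in control primary 3 to 7 it read 65.1, 42.5, 53.6, 46.1 and 50.5 CPM. The groups overlapped in every comparison. KO metastasis 3, with a mitochondrial share of 2.06% against 0.633 to 0.876% in the others, was the lowest library and KO primary 4 the highest. Means were 53.8 ± 11.1 CPM in KO metastasis, 65.2 ± 9.84 CPM in KO primary and 51.5 ± 8.66 CPM in control primary libraries (SD, n = 4, 4 and 5).

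No edgeR test called Cxcr4. For KO primary over control primary the log2 change was 0.34 (SE 0.172, 95% interval -0.03 to 0.71, edgeR adjusted p = 0.435). The interval reaches from a fold of 0.979 to one of 1.64. For KO metastasis over KO primary it was -0.28 (SE 0.183, 95% interval -0.67 to 0.12, edgeR adjusted p = 0.9997). For KO metastasis over control primary it was 0.06 (SE 0.173, 95% interval -0.31 to 0.43, edgeR adjusted p = 0.969). With limma voom and quality weights, the KO primary change was 0.47 (adjusted p = 0.0232), in a test that called 14.7% of all genes.

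Ackr3, the gene for the scavenging receptor, lies on chromosome 1 from 90203980 to 90216751 on the plus strand. It read 24.6, 22.0, 10.2 and 1.496 CPM in KO metastasis 3, 4, 6 and 7. In KO primary 3, 4, 6 and 7 it read 5.65, 8.57, 4.21 and 4.88 CPM, and in control primary 3 to 7 it read 6.20, 2.28, 7.15, 1.71 and 1.32 CPM. KO metastasis 3, 4 and 6 were above every primary library, while KO metastasis 7 was below all KO primary libraries and above only control primary 7. The highest metastasis, replicate 3, with the mitochondrial share of 2.06% given above, was 16.5 times the lowest. Means were 14.6 ± 10.7 CPM in KO metastasis, 5.83 ± 1.92 CPM in KO primary and 3.73 ± 2.73 CPM in control primary libraries (SD, n = 4, 4 and 5).

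The main edgeR fit, of all libraries, did not call Ackr3 in any comparison either. The log2 change of KO metastasis over control primary was 1.97 (SE 0.661, 95% interval 0.55 to 3.39), with an unadjusted p of 0.0100 and an edgeR adjusted p of 0.150. That of KO metastasis over KO primary was 1.32 (SE 0.696, 95% interval -0.17 to 2.82, edgeR adjusted p = 0.9997), and with limma voom its direction turned, to -0.44 (adjusted p = 0.743). That of KO primary over control primary was 0.65 (SE 0.653, 95% interval -0.76 to 2.05, edgeR adjusted p = 0.839). The estimated biological coefficient of variation between libraries was 0.666 for Ackr3, against 0.213 for Cxcl12, 0.196 for Cxcr4 and a median of 0.421 over all genes tested.

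The Ackr3 change of KO metastasis over control primary depended on which libraries and tool were used. DESeq2 called it (log2 change 1.96, adjusted p = 0.0364) in a test that called 8.93% of genes. edgeR called it without the 4 high-background libraries (log2 change 2.93, adjusted p = 0.0150, 6.3% of genes called) and without KO metastasis 7 alone (log2 change 2.35, adjusted p = 0.0381). With limma voom and quality weights the change was 0.99 (adjusted p = 0.330), and without the controls with Xist edgeR gave 1.94 (adjusted p = 0.647). Within the libraries below 100 receptor CPM the log2 ratio of means was 2.91, from 2 metastases and 4 controls. Above it the ratio was -0.08, from KO metastasis 6 and 7 and control primary 3. The 2 metastases with high background were also those with lower Ackr3. Control primary 3 and KO primary 7, also high-background, had 6.20 and 4.88 CPM, above the lowest of their groups (1.32 and 4.21 CPM). The part of the background in the Ackr3 spread was not tested.

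**Figure D2:**
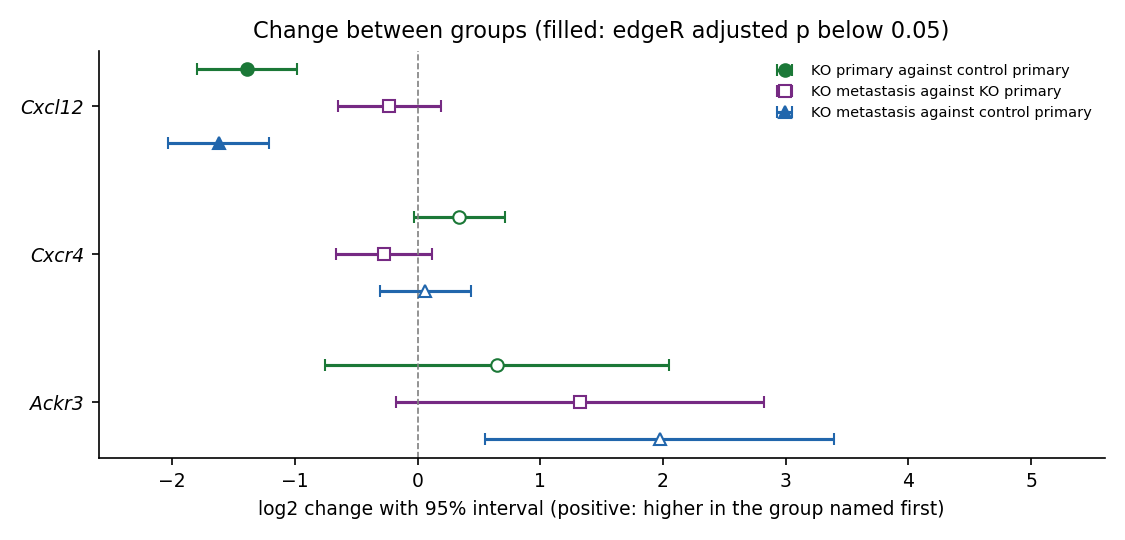
Log2 change with its 95% interval for Cxcl12, Cxcr4 and Ackr3 in the 3 comparisons, with edgeR calls filled. The 2 Cxcl12 changes over control primary, -1.39 and -1.62, are the filled points, and the Ackr3 intervals are the widest.

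Marker sums of other cells also varied between the metastases. Of 9 astrocyte and Bergmann glia genes, none was called in KO metastasis over control primary. Their median log2 change there was -0.21, and 3 of the 9 were positive. Their sum was 729, 765, 545 and 330 CPM in KO metastasis 3, 4, 6 and 7, in the same order as Ackr3 except that replicates 3 and 4 changed places. It was 348 to 666 CPM in KO primary and 429 to 631 CPM in control primary libraries, which overlap the metastases. All 9 were counted in every library, led by Slc1a3, Slc1a2 and Gfap. The 13 microglia and macrophage genes were higher in replicates 6 and 7, with sums of 45.6, 12.97, 215 and 166 CPM in metastasis 3, 4, 6 and 7, against 3.98 to 18.3 CPM in KO primary and 10.2 to 77.4 CPM in control primary libraries. None of the 12 tested was called in any comparison. The 10 oligodendrocyte genes summed to 319, 502, 2011 and 842 CPM in metastasis 3, 4, 6 and 7, against 170 to 426 CPM in KO primary and 225 to 449 CPM in control primary libraries. Of these, Mbp and Mobp were called higher in KO metastasis over control primary (edgeR adjusted p = 0.0216 and 0.0210). With other tools, settings or libraries, the Mbp call was lost in 7 fits and kept in 10, and the Mobp call was lost in 6 and kept in 11. Pericyte and mural genes summed to 10.2 to 15.2 CPM in KO metastasis and 12.4 to 35.7 CPM in KO primary libraries. Control primary libraries had 3.57 to 25.6 CPM. Tagln was at 0 in 4 and Des in 6 of the 13 libraries. None of 8 tested was called in KO metastasis over control primary. In KO primary over control primary, Abcc9 and Kcnj8 were called higher (log2 change 2.08 and 2.48, edgeR adjusted p = 0.0196 and 0.0199). With other tools, settings or libraries, these calls were lost in 5 and 4 fits and kept in 12 and 13. The part of any of these cells in the Ackr3 spread was not tested.

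**Figure D3:**
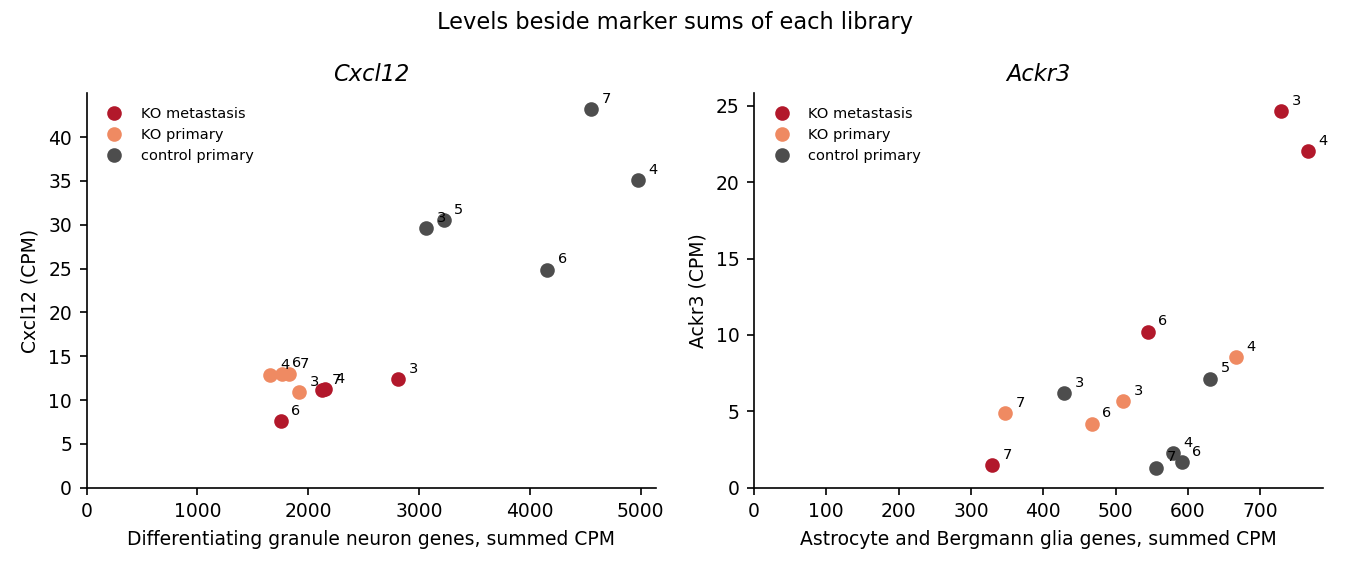
Cxcl12 in CPM against the summed CPM of 16 differentiating granule neuron genes, and Ackr3 in CPM against the summed CPM of 9 astrocyte and Bergmann glia genes, with each library a point coloured by group and numbered by replicate. The 5 controls are high on both axes for Cxcl12, and KO metastasis 3 and 4 are the highest on both axes for Ackr3.

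To compare the 3 genes with each other, CPM was divided by the length of each gene's merged exons, 8176 bases for Cxcl12, 1808 for Cxcr4 and 3348 for Ackr3. On this scale Cxcr4 was highest in every library, averaging 29.8 CPM per kb in KO metastasis, 36.1 in KO primary and 28.5 in control primary libraries, above 87.0%, 89.1% and 86.8% of the 15782 genes ranked. The genes ranked are a part of the 28454 with a matched length. Cxcl12 averaged 1.30 CPM per kb in KO metastasis, 1.52 in KO primary and 4.0 in control primary libraries, above 34.3%, 36.1% and 48.1% of genes. Ackr3 averaged 4.36, 1.74 and 1.11 CPM per kb in the same groups, above 50.5%, 37.5% and 31.8%.

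The level of Cxcl12 per kb over that of Ackr3 was 0.207, 0.210, 0.305 and 3.05 in KO metastasis 3, 4, 6 and 7. In KO primary 3, 4, 6 and 7 it was 0.793, 0.616, 1.27 and 1.09, and in control primary 3 to 7 it was 1.96, 6.30, 1.75, 5.97 and 13.4. Every control was above 1, as were 2 of 4 KO primary libraries and KO metastasis 7. With the longest coding transcript as the length, 3 of 4 KO primary libraries were above 1, so in that group the order of the 2 genes depended on the length used. Cxcr4 over Cxcl12 per kb was 13.7 to 32.8 in KO metastasis, 19.1 to 27.6 in KO primary and 5.29 to 9.93 in control primary libraries, with no overlap between either knockout group and the controls. These ratios restate the values above and were not tested.

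**Figure D4:**
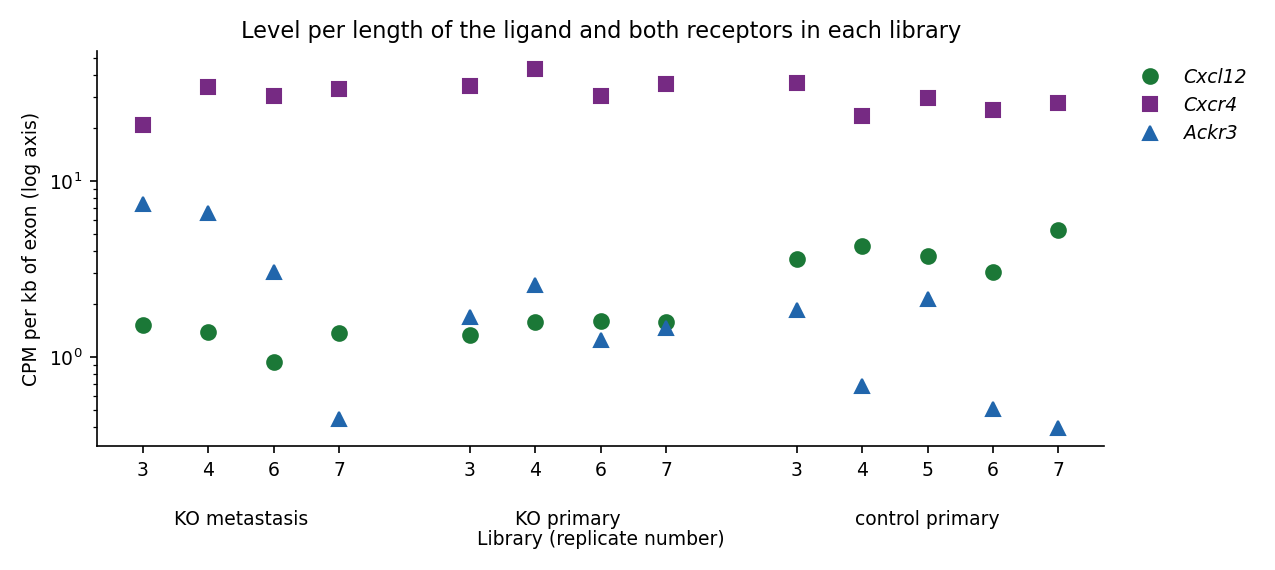
Level of Cxcl12, Cxcr4 and Ackr3 in CPM per kb of merged exon on a log axis, for each library of the 3 groups. Cxcr4 is the highest in all 13 libraries, Cxcl12 is above Ackr3 in all 5 controls, and Ackr3 is above Cxcl12 in KO metastasis 3, 4 and 6.

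Genes that act with these 3, and other chemokine receptors and ligands, were listed in 5 groups. Together they hold 106 genes, of which 87 were tested. Of these, none was called higher and 2 were called lower in KO primary over control primary, 1 higher and 1 lower in KO metastasis over control primary, and none in KO metastasis over KO primary. That is close to the background shares given above. The median log2 changes were -0.30, -0.09 and -0.01, against -0.05, -0.04 and 0.00 for all genes tested. The other ligands and modulators of CXCL12 and its receptors were 10 genes. Mmp2, a metalloprotease that can cut CXCL12, was at 13.6, 4.40, 10.2 and 7.97 CPM in KO metastasis 3, 4, 6 and 7, and at 12.5, 4.35, 3.86 and 6.07 CPM in KO primary 3, 4, 6 and 7. Control primary 3 to 7 had 18.4, 22.4, 23.6, 29.6 and 20.1 CPM of Mmp2, and no knockout library reached any of them. It was called lower in KO primary over control primary (log2 change -1.77, SE 0.376, edgeR adjusted p = 0.0210), but not without KO primary 4, 6 or 7 or without control primary 4 or 6 (adjusted p = 0.0501 to 0.101).

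Signal transducers downstream of the receptors were 30 genes, all tested. Mapk3, which encodes the kinase ERK1, was at 100.5, 95.5, 80.2 and 95.7 CPM in KO metastasis 3, 4, 6 and 7, and at 66.0, 87.7, 80.5 and 88.6 CPM in KO primary 3, 4, 6 and 7. Control primary 3 to 7 had 142, 128, 131, 147 and 145 CPM. It was called lower in KO primary (log2 change -0.78, SE 0.121, edgeR adjusted p = 0.00302) and in KO metastasis over control primary (log2 change -0.58, SE 0.120, edgeR adjusted p = 0.0179). The second call ended without KO metastasis 4 or 6 or control primary 4, 6 or 7 (adjusted p = 0.0510 to 0.0957), without the high-background libraries (0.0968) and with no filter on low counts (0.0742). Tiam1, an exchange factor that activates the GTPase RAC1, was at 57.4, 41.4, 36.8 and 24.7 CPM in KO metastasis 3, 4, 6 and 7, above the 14.6 to 18.5 CPM of the controls. It was called higher there (log2 change 1.29, SE 0.195, edgeR adjusted p = 0.00276), and KO primary libraries, at 24.1 to 28.0 CPM, were above the controls and overlapped the metastases, with no call over control primary (adjusted p = 0.0939). Without the 3 controls with Xist none of these calls held. None of the 17 genes of receptor desensitisation and trafficking, among them the arrestin genes Arrb1 and Arrb2, was called in any comparison.

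Among other chemokine receptors, 13 of 21 were tested and none was called. Of those tested, Ccr2, Ccr4, Ccr6, Ccr8 and Xcr1 had a control median of 0 CPM. The 21 genes summed to 41.8 CPM in control primary 3, a high-background library, against 16.4 to 22.7 CPM in the other controls. They summed to 18.5 CPM in KO primary 7, also high-background, against 5.81 to 8.13 CPM in the other KO primary libraries. The part of the background in the median change was not tested. The median log2 change of the tested receptors over control primary was -1.16 in KO primary (1 positive) and -0.68 in KO metastasis (5 positive). Those with the highest level per kb were Ackr1, Ccr10 and Cx3cr1, at 5.49, 1.10 and 6.44 CPM in the KO metastases, 3.71, 1.11 and 0.622 CPM in KO primary and 11.4, 2.31 and 2.17 CPM in control primary libraries. These 3 overlap other genes (Cadm3, Cntnap1 and Wdr48 among them). Cadm3 lies on the same strand as Ackr1, and Gorasp1 (29.4 CPM on average) on the same strand as Cx3cr1. Cntnap1 and Wdr48 lie on the strand opposite to Ccr10 and Cx3cr1. No strand setting is given for the counting, and the levels of all 3 are uncertain. Of 30 other chemokine ligands 19 were tested and none was called. The 30 genes summed to 102 CPM in control primary 3, against 52.3 to 75.3 CPM in the other controls. In KO primary 7 the sum was 37.3 CPM, within the 26.1 to 44.7 CPM of its group. The part of the background was not tested here either. The median log2 change of the tested ligands over control primary was -1.22 in KO primary (1 positive) and -0.10 in KO metastasis (9 positive). The highest per kb were Cxcl14, Ccl25 and Ccl4. Cxcl14, a chemokine reported to bind CXCR4, averaged 5.74 ± 5.41 CPM in KO metastasis (n = 4), 7.18 ± 7.18 CPM in KO primary (n = 4) and 31.8 ± 14.9 CPM in control primary libraries (n = 5), with edgeR adjusted p = 0.0740 and 0.124 over control primary for KO metastasis and KO primary. Ccl25, which overlaps Elavl1, averaged 20.1 CPM in KO metastasis, 18.9 CPM in KO primary and 22.8 CPM in control primary libraries. Ccl4 averaged 3.55 CPM in KO metastasis, 0.133 CPM in KO primary and 0.286 CPM in control primary libraries (edgeR adjusted p = 0.0884 for KO metastasis over control primary).

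**Figure D5:**
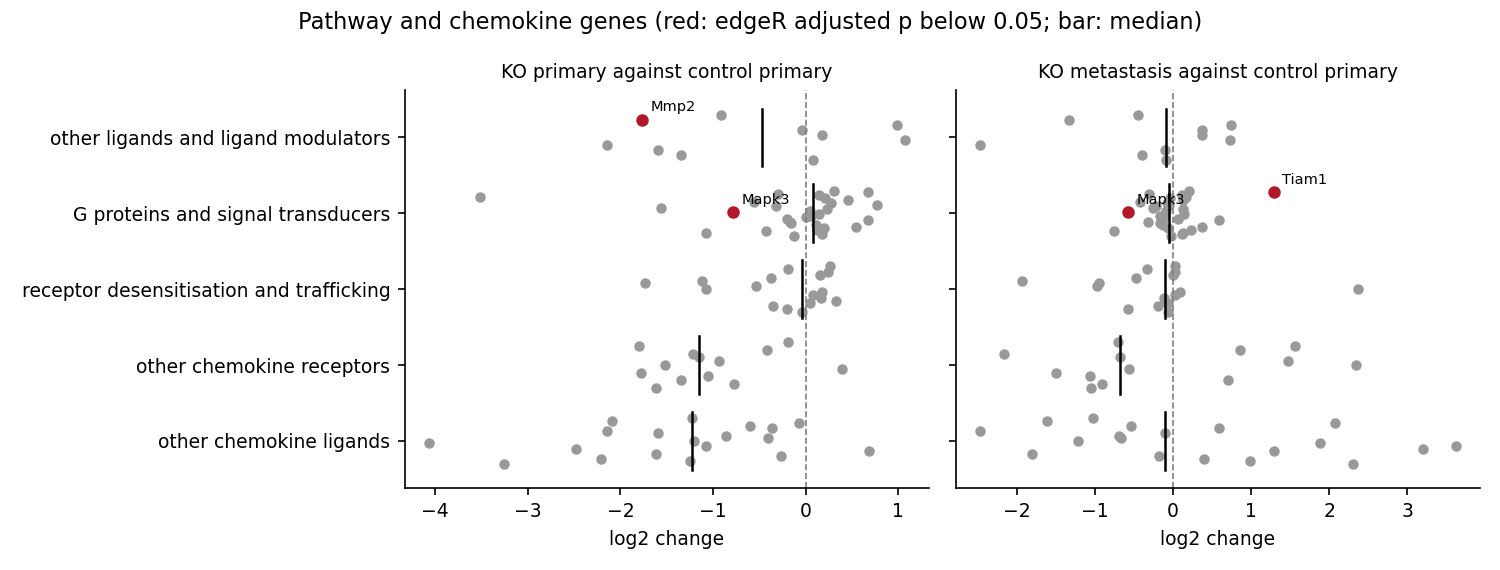
Log2 changes of the tested genes of 5 pathway and chemokine lists in KO primary over control primary and KO metastasis over control primary, with calls in red and each list's median as a bar. Mmp2, Mapk3 and Tiam1 are the genes called.

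The genes whose levels across the 13 libraries were most like each of the 3 were ranked by Pearson r of log2 CPM among 10387 genes of at least 5 CPM on average. The r values are descriptions, since the libraries share groups and depth. For Cxcl12 the closest were Lysmd4 (r = 0.958), Podxl2 (0.950), Abhd16a (0.945) and Fam161b (0.943). After group means were removed these r values were 0.707, 0.510, 0.379 and 0.674. Podxl2 averaged 184 CPM in KO metastasis, 185 CPM in KO primary and 333 CPM in control primary libraries. Lysmd4 and Fam161b overlap genes on the other strand. For Cxcr4 the closest were Ctu2 (r = 0.941), Chrdl1 (0.866), Bcat2 (0.861) and Rprml (0.859), and Ctu2 kept 0.949 after group means were removed. Ctu2 overlaps Piezo1 on the other strand. For Ackr3 the closest were Rreb1 (0.876), Utp23 (0.874), Pbxip1 (0.868) and Map2k6 (0.859), with values of 0.803 to 0.887 after group means were removed.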

How the data were processed

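Raw counts of reads per gene symbol were deposited for 13 libraries, and every column has a sample. STAR 2.4, HTSeq 0.6.1, DESeq2 and the build mm10 are named in the submitters' processing notes, which do not give their roles. The sources used here name no strand setting and no annotation release. Per the labels' protocols, GFP-positive cells were sorted after papain digestion, and a TruSeq RNA kit was used for the libraries. One edgeR 4.0.16 model (R 4.3.3) covered all libraries (filterByExpr with minimum count 10 and minimum total 15, TMM, quasi-likelihood F test of 3 groups). The threshold was a Benjamini-Hochberg adjusted p of 0.05 over all 22265 genes tested. A log2 change is the fitted coefficient, its SE is its size over the square root of F, and levels are CPM scaled by TMM, with the SD between libraries. Library totals were 23.5 to 41.4 M counts. The intervals rest on the spread between libraries and do not separate amplification copies from molecules. Lengths and GRCm38 coordinates (1-based) come from GENCODE M21, matched by symbol for 28454 of 53653 genes. The fit was checked on simulated counts. DESeq2 1.42.0, limma 3.58.1 voom with quality weights, no low-count filter, a fit of the 2 groups alone, a replicate block, and fits without a library, without high-background libraries (above 100 receptor CPM) and without controls with Xist above 100 CPM were alternatives. The longest-transcript length and the split by hemisphere were added after the data were seen.

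The 3 genes, the lists and the rule for naming genes were chosen with earlier results of these data known. The rule names the called genes of each pathway list (up to 4 per comparison), the 3 chemokine genes highest per kb in each family, up to 3 abundant or 2 called markers per cell type, and the 4 genes most like each of the 3 in Pearson r.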

Additional observations from a re-analysis of the deposited data

Results flagged for a closer look

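Cxcl12 in KO primary 3, at 10.9 CPM, lay below the other 3 KO primary libraries, which span 12.9 to 13.01 CPM. Its gap to the nearest of them was 0.944 of the group's range, past the limit of 0.829 for 4 samples. About 1 in 20 groups would be marked so by chance, and the level remained below every control.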

How the results depend on the processing

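Cxcl12 kept its direction in every fit run. Over control primary, leaving out 1 library in turn gave log2 changes of -1.49 to -1.28 for KO primary and -1.70 to -1.46 for KO metastasis, each called. Without controls with Xist the KO primary change was -1.33 (adjusted p = 0.0561). With a replicate block the values were -1.41 (adjusted p = 0.0172) and -1.65 (adjusted p = 0.0144), so the block did not end either call. The shared replicate numbers were not taken as pairs: deviations from group means of same-numbered libraries correlated at 0.069 to 0.589 for KO metastasis and KO primary, and at -0.221 to 0.159 for KO primary and control primary. Other pairs of KO metastasis and KO primary libraries gave -0.367 to 0.437. Of the 4 KO metastases 2 correlated best with their own number in KO primary, and of the 4 KO primary libraries 3 did with their own in KO metastasis, a hint from the data and not from the design. The cause of the changes below was not tested, but leaving libraries out also leaves fewer samples.

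For Cxcr4, voom gave 0.47 (adjusted p = 0.0232) in KO primary over control primary. For Ackr3, voom gave -0.44 (adjusted p = 0.743) in KO metastasis over KO primary, the opposite sign. In KO metastasis over control primary, DESeq2 gave 1.96, voom 0.99 (adjusted p = 0.330), the fit without high-background libraries 2.93, and leaving out 1 library 1.61 to 2.4, called only without KO metastasis 7 (2.35).

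Of the genes called in KO primary over control primary (653), DESeq2 gave 1684, voom 3267, the fit without high-background libraries 1427, that without controls with Xist 138, and leaving out 1 library 277 (KO primary 4) to 1032 (control primary 3). In KO metastasis over KO primary (1), the counts were 39 with DESeq2, 2 with voom, 2 with no filter, 0 with 2 groups only, 10 with a replicate block, 5 without high-background libraries and 0 to 1 without 1 library. In KO metastasis over control primary (685), they were 1680 with DESeq2, 3822 with voom, 388 with the block, 1274 without high-background libraries, 100 without controls with Xist, and 369 (KO metastasis 4) to 1199 (control primary 3) without 1 library.

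Of the listed genes called, KO primary over control primary (2) gave 11 with DESeq2, 13 with voom, 6 with 2 groups only, 1 with the block, 8 without high-background libraries, 0 without controls with Xist and 1 to 4 without 1 library. KO metastasis over KO primary (0) gave 4 with DESeq2 and 1 with the block. KO metastasis over control primary (2) gave 9, 21, 4, 0, 4 and 0 under the same 6 settings and 1 to 5 without 1 library. Under the block the Mapk3 and Tiam1 calls were among those lost. Ackr3 rested on the fewest reads of the 3 genes in control libraries, 49 to 188.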
